A study of Mus musculus with 25 samples.

Results

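The genes described here are 43 skeletal muscle contractile and metabolic genes, the rows of the raw count table whose gene identifiers carry 1 of 43 muscle gene symbols fixed as a list. All 43 were found among the 35880 genes of the table. By the role of their products they fall into 10 thick filament genes, 8 thin filament genes, 12 genes of the Z-disc, titin and the muscle cytoskeleton, 5 genes of excitation-contraction coupling, 3 acetylcholine receptor subunits and 5 metabolic genes. None of the sampled tissues was collected as muscle. The levels describe the transcripts of these genes in each dissected mesenchyme, and which cells made them was not tested.

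The RNA of 25 pools of mesenchyme was sequenced. They came from wild-type C57Bl/6JOlaHsd mouse embryos, with 5 pools for each of 5 tissues and no treatment. At embryonic stage E13.5 the tissues were the mammary mesenchyme around the bud (E13.5 MM), ventral skin mesenchyme away from the mammary region (E13.5 VM) and salivary gland mesenchyme (E13.5 SM). At E16.5 they were the mammary mesenchyme around the sprout (E16.5 MM) and the fat pad precursor (E16.5 FP). Each pool combined mesenchyme of a few embryos of 1 litter, pools of a tissue came from several litters, and the sources read here do not give which pools shared a litter. The E16.5 embryos were female, as the study's methods limit stages beyond E13.5 to females, and the sex of the E13.5 embryos is not given. Epithelium was removed with enzymes and needles, and no step of the protocol sorted muscle cells in or out. The p-values therefore measure the spread between such pools.

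Skeletal muscle fibres contract when myosin heads of the thick filament pull on the actin of the thin filament, after calcium has been released from the sarcoplasmic reticulum and has bound to troponin. Most parts of this machine are made by families of genes of which developing, slow and fast fibres use different members. Embryonic (Myh3) and perinatal (Myh8) myosin heavy chains precede the adult fast (Myh1 and Myh2) heavy chains, and Myh7 is the slow heavy chain. Troponin has a slow (Tnnt1, Tnni1 and Tnnc1) and a fast (Tnnt3, Tnni2 and Tnnc2) set of subunits. The receptor subunit Chrng belongs to the fetal form of the acetylcholine receptor.

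The genes Myh1, Myh2, Myh3 and Myh8 lie on the plus strand within chr11:67078300-67308634 (GRCm38, GENCODE M21). Promoter sequences are shown for 5 members on which the results below turn. Myh3 and Myh8 are the ends of this cluster, and the balance between them was followed from tissue to tissue. Acta1, the skeletal muscle actin, had the highest level per length at E16.5, Ckm, the muscle creatine kinase, had the largest difference between the stages, and Mybpc1, the slow myosin-binding protein C, was the only member called in every comparison of E13.5 tissues. The windows, from RefSeq on GRCm38.p6, run from 250 bases before to 50 bases after the start of transcription and are written 5′ to 3′. They lie at chr11:67078050-67078349, plus strand (Myh3), chr11:67276874-67277173, plus strand (Myh8), chr8:123894726-123895025, minus strand (Acta1), chr7:19410844-19411143, plus strand (Ckm) and chr10:88605103-88605402, minus strand (Mybpc1). Capitals mark the letters CANNTG (the E-box, bound by myogenic factors such as MyoD), TATAAA, the MEF2 box and the CArG box (bound by serum response factor).
Myh3: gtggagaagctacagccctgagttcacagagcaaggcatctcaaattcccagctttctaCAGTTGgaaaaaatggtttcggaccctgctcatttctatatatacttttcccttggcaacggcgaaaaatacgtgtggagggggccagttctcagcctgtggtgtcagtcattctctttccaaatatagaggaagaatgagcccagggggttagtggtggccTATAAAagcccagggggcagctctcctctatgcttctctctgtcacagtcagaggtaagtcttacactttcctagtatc
Myh8: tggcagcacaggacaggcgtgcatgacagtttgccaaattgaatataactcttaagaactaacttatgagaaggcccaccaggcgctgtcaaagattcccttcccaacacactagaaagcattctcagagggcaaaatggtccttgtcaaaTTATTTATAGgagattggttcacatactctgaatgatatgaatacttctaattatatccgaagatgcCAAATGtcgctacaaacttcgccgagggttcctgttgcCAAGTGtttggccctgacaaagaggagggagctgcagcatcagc
Acta1: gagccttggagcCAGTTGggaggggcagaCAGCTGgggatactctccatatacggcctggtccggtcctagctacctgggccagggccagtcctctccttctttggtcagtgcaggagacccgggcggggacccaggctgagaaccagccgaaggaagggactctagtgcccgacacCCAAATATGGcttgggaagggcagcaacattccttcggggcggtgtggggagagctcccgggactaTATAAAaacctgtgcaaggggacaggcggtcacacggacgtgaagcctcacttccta
Ckm: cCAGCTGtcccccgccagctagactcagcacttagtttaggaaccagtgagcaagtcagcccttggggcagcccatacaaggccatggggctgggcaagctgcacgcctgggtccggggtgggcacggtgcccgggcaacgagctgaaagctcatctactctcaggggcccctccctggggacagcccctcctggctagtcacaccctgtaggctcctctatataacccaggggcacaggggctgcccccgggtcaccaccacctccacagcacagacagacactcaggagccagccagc
Mybpc1: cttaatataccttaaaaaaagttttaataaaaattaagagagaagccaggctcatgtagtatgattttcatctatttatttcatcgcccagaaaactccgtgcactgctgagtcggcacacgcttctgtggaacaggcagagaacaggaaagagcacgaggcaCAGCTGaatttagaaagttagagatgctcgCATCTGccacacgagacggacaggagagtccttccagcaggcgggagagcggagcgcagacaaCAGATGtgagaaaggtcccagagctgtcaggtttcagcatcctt

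The Myh8 window held a MEF2 box and the Myh3 window did not, and of these 5 windows only that of Acta1 held a CArG box. Of the 43 members, 33 had at least 1 window, 36 windows in all. The E-box CAGCTG, which is also counted under CANNTG, was found on either strand in 50% of these windows and in 16.3% of all 32851 promoter windows of the same length. The MEF2 box was found in 19.4% against 3.19%, the CArG box in 8.33% against 1.63%, TATAAA in 25% against 13.6%, the letters CATTCC in 27.8% against 14.7%, and CANNTG in 80.6% against 72.3%. These shares describe letters in the windows and not binding.

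The libraries held 20678150 to 34448304 estimated counts each. Levels are given below as normalized counts. Each is the count divided by the effective library size, the total times its TMM factor, and multiplied by the mean effective size of 26544648. A value of 1 is thus about 1 count in a library of average depth. Markers of the labelled tissues were present. The summed level of Barx1 and Nr5a2, genes of salivary mesenchyme, was 344 to 405 CPM (counts scaled to a common library total) in E13.5 SM and at most 17.5 CPM elsewhere, and Esr1 and Tbx3, genes of mammary mesenchyme, were called higher in the mammary than in the ventral skin mesenchyme of E13.5. The adipocyte genes Pparg, Cebpa, Fabp4, Plin1 and Adipoq were all called higher in the fat pad than in E16.5 MM. The 5 markers of heart muscle (Nppa, Nkx2-5, Myl7, Tnni3 and Myh6) summed to 1.17 to 4.26 CPM in every library.

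The 43 genes together took 0.0187% to 2.68% of a library's counts. All 43 had their highest mean in E16.5 FP. The lowest mean was in E13.5 SM for 25 of them and in E13.5 MM for the other 18. In E16.5 FP the summed level was 18834, 27499.6, 16822, 16339 and 2811 CPM in replicates 1 to 5. In E16.5 MM it was 3778, 4548, 1217, 1835 and 1069 CPM. The fat pad libraries thus lay above those of E16.5 MM with the exception of replicate 5, which fell among them. In the E13.5 tissues the sums were lower, at 836, 691, 922, 435 and 1007 CPM in E13.5 VM. They were 269, 228, 674, 456 and 310.1 CPM in E13.5 MM. The E13.5 SM libraries held 943, 181, 285, 261 and 201 CPM, and replicate 1 stood above the other SM libraries. The 3 E13.5 tissues overlapped each other. Every E16.5 library lay above every E13.5 library, but narrowly, at 1069 CPM in E16.5 MM replicate 5 against 1007 CPM in E13.5 VM replicate 5. Ttn, the longest of these genes, took a large part of each sum, and without Ttn and Mybpc1 the order was the same for E16.5 FP replicate 5, at 1467 CPM against 8523 to 14928 CPM in the other fat pad libraries. The gap between the stages then almost closed, at 549 CPM in E16.5 MM replicate 5 against 547 CPM in E13.5 SM replicate 1. In bulk samples, more muscle cells, more RNA per muscle cell and transcripts of these genes from other cells cannot be told apart.

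**Figure D1:**
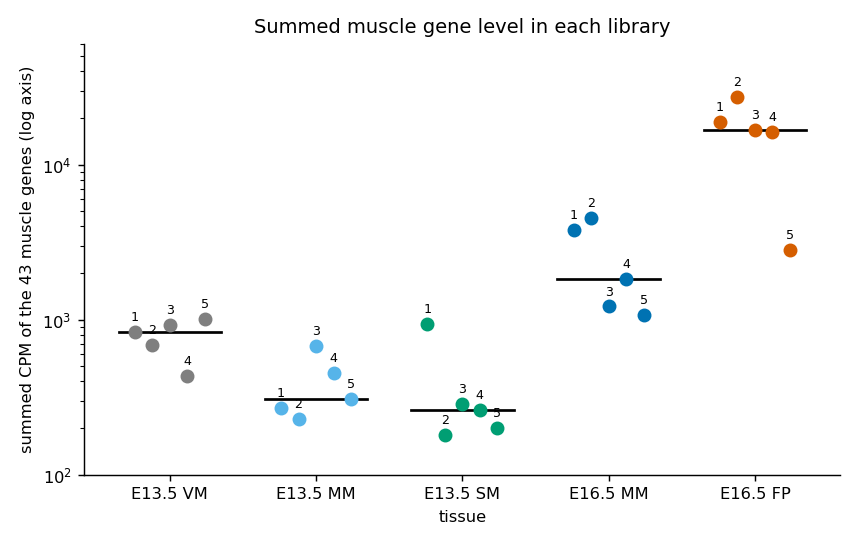
Summed level of the 43 muscle genes in CPM (log axis) in each of the 25 libraries, by tissue, with the replicate number above each point and a bar at the median. E16.5 FP replicate 5 lies at 2811 CPM, below 2 E16.5 MM libraries, and E13.5 SM replicate 1 lies at 943 CPM, above the other 4 SM libraries.

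Within each tissue the muscle genes varied between replicates far more than other genes. Among genes with a mean above 50, the median coefficient of variation of the members was 42.6% in the ventral, 52.2% in the mammary and 94.7% in the salivary mesenchyme of E13.5, 59.3% in E16.5 MM and 54.8% in E16.5 FP. For all genes above that level it was between 9.66% and 12.7%. The members moved together from library to library. Replicate 5 was the lowest fat pad library for 42 of 43 members, Myh2 excepted, and over the 41 members with a mean above 50 its median ratio to the median of the other 4 was 0.149. Replicate 2 was the highest fat pad library for 42 of 43, Myh1 excepted. In E13.5 SM, replicate 1 was the highest for 40 of 43, with a median ratio of 4.32 to the other 4. In E13.5 MM, replicate 3 was the highest for 40 of 43, with a median ratio of 2.42. Replicate 4 of E13.5 VM was the lowest for 39 of 43, with a median ratio of 0.320, and replicate 2 of E16.5 MM was the highest for 36 of 43, with a median ratio of 2.72.

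The regulators of muscle progenitors Pax7, Myf5 and Myod1 and the differentiation factor Myog summed to 25.5 CPM in fat pad replicate 5 and to 93.0 to 169 CPM in the other 4 libraries. Myog gave most of this sum, and each of the 4 genes was lowest in replicate 5. The progenitor factor Pax3 was not, with 13.3, 19.8, 32.2, 23.8 and 27.5 normalized counts in the 5 fat pad libraries. The adipocyte genes summed to 857 CPM in replicate 5, within the 670 to 1405 CPM of the others, and the endothelial genes Pecam1, Cdh5 and Kdr to 837 CPM, within 665 to 855 CPM. In E13.5 MM replicate 3 the same 4 regulators summed to 72.7 CPM, against 23.2 to 43.7 CPM in the other E13.5 MM libraries. In E13.5 VM, Myog was lowest in replicate 4, at 373 normalized counts, while Pax7, Myf5 and Myod1 were lowest in replicate 2. In E13.5 SM replicate 1 the 4 regulators summed to 43.8 CPM, against 14.2 to 22.1 CPM in the other 4 libraries, while the salivary genes stood at 383 CPM, within 344 to 405 CPM. Smooth muscle genes (Acta2, Myh11, Cnn1, Actg2, Smtn and Myocd) were at 208 CPM in fat pad replicate 5, the lowest of the fat pad libraries, the others ranging from 288 to 424 CPM. Their part in the differences was not tested.

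**Figure D2:**
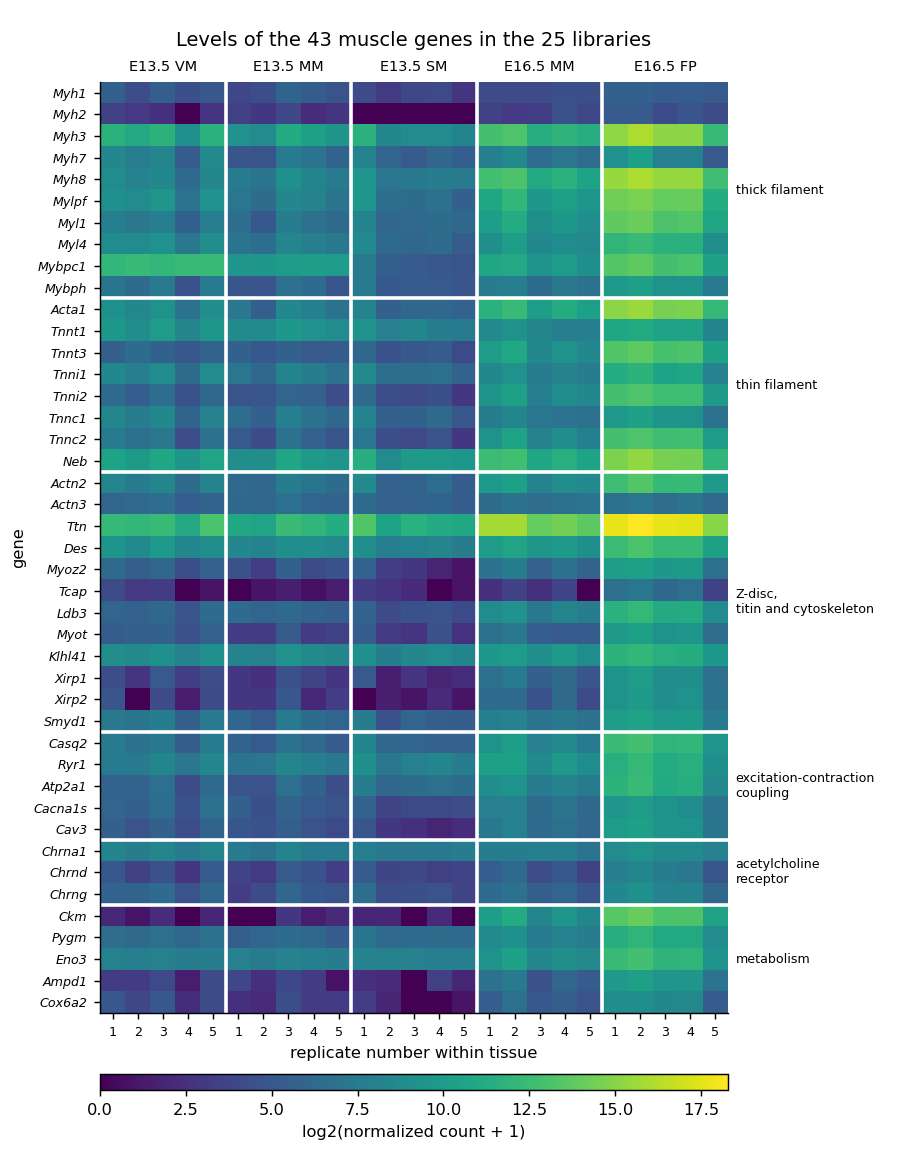
Levels of the 43 muscle genes as log2(normalized count + 1), 1 row per gene grouped by role and 1 column per library. Replicates 1 to 4 of E16.5 FP are brighter than every E16.5 MM library in 40 of 43 rows, replicate 5 is dimmer, and Ckm is dark in all 15 E13.5 libraries.

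The comparison of E16.5 FP with E16.5 MM asks how the fat pad precursor differs from the mesenchyme next to the sprout at the same stage. Of the 43 members, 39 were higher in E16.5 FP and 0 were lower, where a gene was called if its adjusted p was under 0.05 (edgeR, quasi-likelihood test, adjusted over all 17657 genes tested), its log2 fold change 0.58 or more in size, and the mean of the higher tissue over 50 normalized counts. Over all genes tested, 6.78% were called higher and 7.34% lower. The median log2 fold change of the members was 2.75, and that of all genes tested 0.0025. The members not called were Myh1, Myh2, Myh7 and Actn3, and all 43 log2 fold changes were positive. Because of replicate 5, no more than 3 members, Myh1, Xirp2 and Chrna1, were higher in every fat pad library than in every E16.5 MM library, against 11.1% of all genes. Without replicate 5, a comparison chosen after seeing the data, this held for 40 of 43 members and 15.2% of all genes, and the number called stayed at 39. Markers of other cells differed beside the members. The mesenchymal genes Col1a1, Pdgfra and Twist2 were all lower in the fat pad (median log2 fold change −1.40, 1486 to 3804 CPM in sum against 5341 to 6826 CPM), 3 of 4 epithelial genes were lower (median −2.45), and so were Esr1 and Tbx3. The 5 adipocyte genes were higher (median 2.87). Their part was not tested.

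Among the thick filament genes 7 of 10 were higher in E16.5 FP. The embryonic heavy chain Myh3 was at 37930.2, 65975, 35979, 34511 and 5399 normalized counts in fat pad replicates 1 to 5 and at 7704, 9745, 2691, 3887 and 2654 in E16.5 MM (log2 fold change 2.75 ± 0.75, adjusted p = 0.00679). The perinatal heavy chain Myh8 was at 45104, 66053, 43026, 42071 and 6425 in the fat pad and at 6858, 9174, 2207, 3348 and 1547 in E16.5 MM (log2 fold change 3.13 ± 0.65, adjusted p = 0.000639). In both genes replicate 5 fell within the range of E16.5 MM and the other 4 fat pad libraries lay above it. Myl1, the fast essential light chain, had the largest difference of this group, with 1691 to 17656 against 499 to 2385 (log2 fold change 3.30 ± 0.61, adjusted p = 0.000208). Mylpf, the fast regulatory light chain, was at 2569 to 25393 against 776 to 4429 (log2 fold change 3.15 ± 0.73, adjusted p = 0.00184). Myl4, the light chain of embryonic muscle and of the atrium, was at 528 to 5273 against 372 to 1166 (log2 fold change 2.46 ± 0.60, adjusted p = 0.00266). Mybpc1 and Mybph, which bind myosin, were called as well. The slow heavy chain Myh7 was at 620.3, 1268, 253, 256 and 33.8 in the fat pad and at 238, 399, 91.4, 146 and 91.7 in E16.5 MM, so that 3 fat pad libraries lay inside or below the range of E16.5 MM (adjusted p = 0.206). The adult fast chains were scarce. Myh1 was at 34.9 to 48.9 in the fat pad and 18.0 to 21.2 in E16.5 MM, and Myh2 was at 16.1 to 36.7 and 7.20 to 22.0, so that neither reached the mean count that a call needs.

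All 8 thin filament genes were higher in E16.5 FP. Acta1 was at 35744, 47091, 24009, 25767 and 4582 in the fat pad and at 3203, 5230.1, 1189, 2531 and 1257 in E16.5 MM (log2 fold change 3.36 ± 0.66, adjusted p = 0.000377). Per length of exon it had the highest mean of the members in both tissues, at 17864 ± 10254 normalized counts per kilobase (SD, n = 5) in the fat pad and 1746 ± 1082 in E16.5 MM. Mylpf followed in both, at 15298 ± 7968 and 1727 ± 1416. These SDs include the shared spread of the members between libraries, and the difference between these genes was not tested. The fast troponin subunits differed by log2 fold changes of 3.33 for Tnnc2, which binds calcium, 3.28 for the inhibitory Tnni2 and 3.27 for Tnnt3, which holds the complex on tropomyosin (adjusted p = 0.000557, 7.52e-05 and 2.14e-05). The values of their slow counterparts were smaller. Tnnc1 had a log2 fold change of 2.05, Tnnt1 of 2.00 and Tnni1 of 2.56 (adjusted p = 0.0151, 0.00172 and 0.00237). The call of Tnnc1 was lost without fat pad replicate 2 (log2 fold change 1.69). Tnnc1 overlaps Nisch on the other strand and Tnnc2 overlaps Ube2c, and as the use of strand is not stated, reads of such pairs cannot be told apart. Neb, the nebulin that spans the thin filament, was at 4133 to 40373 against 1557 to 6809.5.

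Of the 12 genes of the Z-disc, titin and the cytoskeleton, 11 were higher in E16.5 FP. Tcap, the cap of titin, was at 104, 147, 69.9, 109 and 10.6 in the fat pad and at 4.59, 10.8, 4.81, 11.6 and 0 in E16.5 MM (log2 fold change 3.79 ± 0.81, adjusted p = 0.000576). Xirp2, an actin-binding protein, was at 664, 893, 489, 665 and 112 against 83.8, 76.8, 22.8, 81.0 and 16.1 (log2 fold change 3.33 ± 0.63, adjusted p = 0.000236), and here even replicate 5 lay above E16.5 MM. Myot, the Z-disc protein myotilin, was at 90.9 to 1264 against 34.7 to 159.5 (log2 fold change 3.27 ± 0.60, adjusted p = 0.000171). Ttn, titin itself, had the most counts of all members, 34236 to 319715 in the fat pad and 13262 to 58091 in E16.5 MM. Actn3, the alpha-actinin of fast fibres, was the exception, at 102, 146, 91.4, 128 and 75.1 in the fat pad and 87.2, 115, 93.8, 103 and 124 in E16.5 MM (log2 fold change 0.05, adjusted p = 0.904). In fat pad replicate 5 it stood at 0.653 of the median of the other 4 libraries, the highest such ratio among the 41 members with a mean above 50. The other alpha-actinin, Actn2, was at 885 to 10872 against 296 to 1316 and was called.

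All 5 genes of excitation-contraction coupling were higher in E16.5 FP. Casq2, which stores calcium in the reticulum, was at 5521, 7126, 3982, 4358 and 733 in the fat pad and 633, 1135, 243, 383 and 198 in E16.5 MM (log2 fold change 3.07 ± 0.62, adjusted p = 0.000456). Atp2a1, the calcium pump of fast fibres, was at 391 to 5153 against 173 to 648 (log2 fold change 3.00 ± 0.57, adjusted p = 0.000263). Cav3, the muscle caveolin, was at 135 to 1269 against 63.5 to 257 (log2 fold change 2.55 ± 0.51, adjusted p = 0.000408). The release channel Ryr1 and its voltage sensor Cacna1s were called with smaller differences. The 3 receptor subunits were all higher. Chrna1 was at 455, 648, 404, 416 and 251 in the fat pad and 202, 216, 237, 238 and 125 in E16.5 MM (log2 fold change 1.10 ± 0.23, adjusted p = 0.000598). Chrnd (log2 fold change 2.40 ± 0.58, adjusted p = 0.00191) and the fetal subunit Chrng (log2 fold change 2.22 ± 0.57, adjusted p = 0.00349), which lie next to each other on chromosome 1, differed by more.

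The 5 metabolic genes were also all higher. Ckm was at 11902, 16588, 8882, 9061 and 1467 in the fat pad and 1203, 2448, 319.9, 777 and 339 in E16.5 MM (log2 fold change 3.24 ± 0.53, adjusted p = 5.76e-05). Ampd1, the muscle AMP deaminase, was at 127 to 1302 against 21.6 to 195 (log2 fold change 3.16 ± 0.58, adjusted p = 0.00017). Cox6a2, the muscle form of a cytochrome c oxidase subunit, was at 39.1 to 545 against 25.2 to 104 (log2 fold change 2.89 ± 0.61, adjusted p = 0.000585). Pygm, the glycogen phosphorylase, and Eno3, the muscle enolase, were called too.

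**Figure D3:**
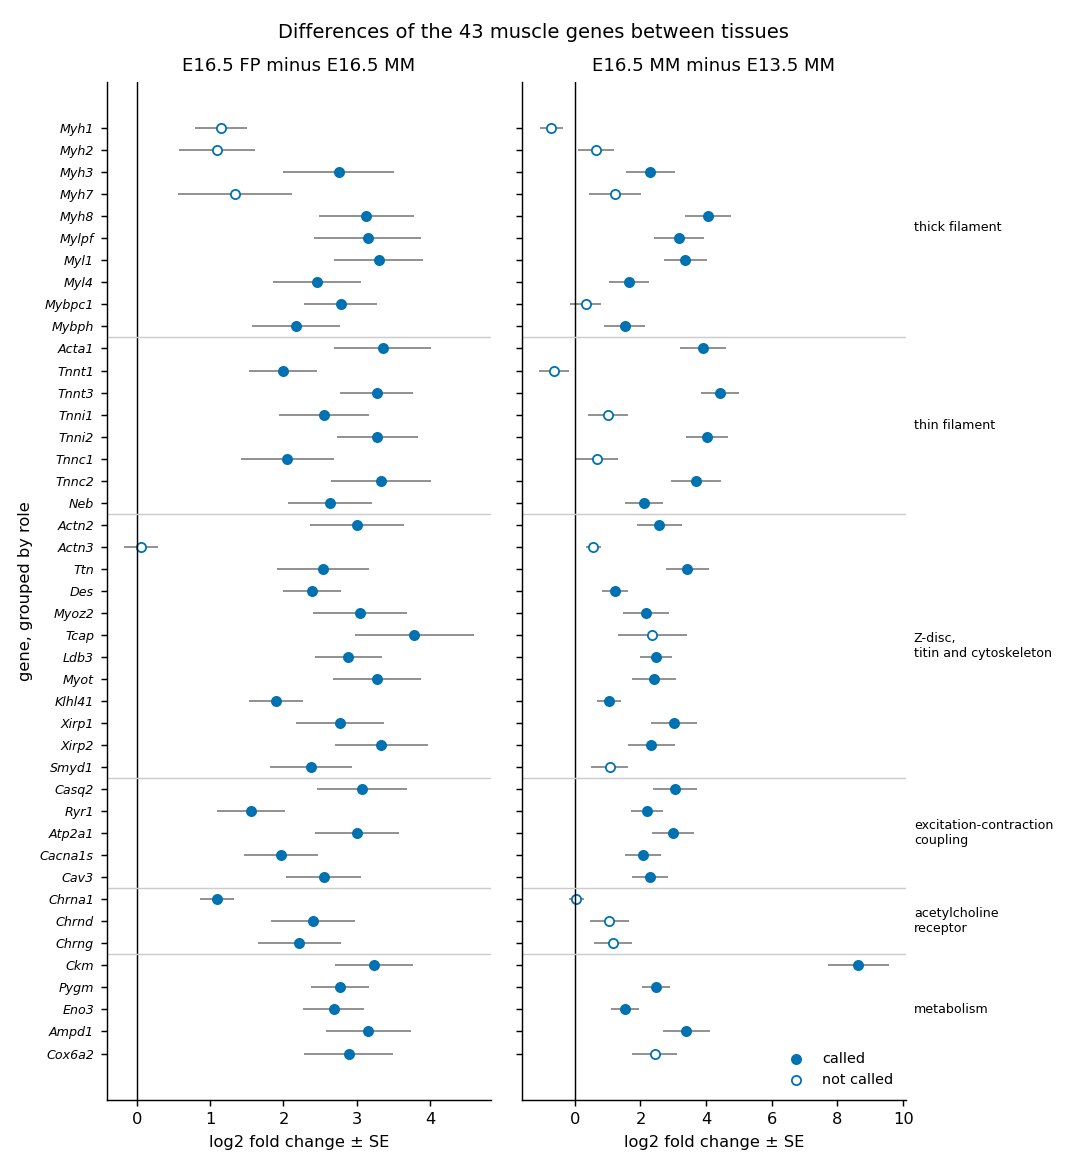
Log2 fold changes of the 43 members with their standard errors for E16.5 FP against E16.5 MM (left) and E16.5 MM against E13.5 MM (right), grouped by role, with filled points for called members. On the left 39 points are filled and Actn3 lies at 0.05, and on the right 29 are filled and Ckm lies at 8.64.

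Between E13.5 and E16.5 the mammary mesenchyme itself was compared, which asks what differs between the quiescent and the sprouting stage. This comparison shares the E16.5 MM libraries with the one above. Of the 43 members, 29 were higher in E16.5 MM and 0 lower, where 12.6% of all genes were called higher and 7.16% lower. The median log2 fold change was 2.29 for the members and 0.014 for all genes. For 24 members every E16.5 library lay above every E13.5 library, against 16.8% of all genes. By role, 6 of 10 thick filament genes, 5 of 8 thin filament genes, 9 of 12 genes of the Z-disc group, 5 of 5 of excitation-contraction coupling, 4 of 5 metabolic genes and 0 of 3 receptor subunits were called. Markers of other cell types were higher at E16.5 as well, all 6 smooth muscle genes (median log2 fold change 3.18, 251 to 344 CPM in sum against 108 to 159.6 CPM), all 4 epithelial genes (Epcam, Krt14, Krt5 and Cdh1, median 3.33, 7.34 to 75.5 CPM against 2.20 to 8.11 CPM) and all 5 adipocyte genes (median 3.87). Their part was not tested. The E13.5 embryos were not labelled by sex, so that sex and stage cannot be told apart here.

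Ckm had the largest difference. It was at 0, 0, 6.83, 1.57 and 3.54 in E13.5 MM, was equally near 0 in E13.5 VM and E13.5 SM (0 to 3.93), and reached 1203, 2448, 319.9, 777 and 339 in E16.5 MM (log2 fold change 8.64 ± 0.92, adjusted p = 1.33e-07). With so few counts at E13.5, the size of this fitted value depends on the prior count of the fit. The fast troponin subunits followed among the thin filament genes with Acta1. Tnnt3 was at 50.9, 32.5, 49.8, 33.7 and 38.9 in E13.5 MM and 1048, 1967, 375, 633 and 379 in E16.5 MM (log2 fold change 4.43 ± 0.58, adjusted p = 2.47e-06). Tnni2 was at 18.6 to 62.5 and 236 to 1344 (log2 fold change 4.04 ± 0.64, adjusted p = 2.66e-05), and Tnnc2 at 18.2 to 114 and 233 to 1525 (log2 fold change 3.69 ± 0.77, adjusted p = 0.000472). None of the 3 slow subunits was called. Tnnt1 was at 427, 415, 869, 621 and 462 in E13.5 MM and 384, 650.0, 316, 222 and 238 in E16.5 MM (log2 fold change -0.63, adjusted p = 0.26). Tnni1 was at 69.9 to 298 and 199.6 to 618 (adjusted p = 0.178), and Tnnc1 at 47.9 to 231 and 109.8 to 329.8 (adjusted p = 0.391).

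The perinatal heavy chain Myh8 differed more than the embryonic one. Myh8 was at 193, 130.2, 582, 306 and 178 in E13.5 MM and at 1547 to 9174 in E16.5 MM (log2 fold change 4.06 ± 0.69, adjusted p = 5.63e-05). Myh3 was at 602, 444, 2335, 1313 and 723 in E13.5 MM and at 2654 to 9745 in E16.5 MM (log2 fold change 2.30 ± 0.75, adjusted p = 0.0148). In neither did the stages overlap. Myl1 and Mylpf had log2 fold changes of 3.36 and 3.18 (adjusted p = 0.000231 and 0.00161). The difference of Myl4 was smaller (log2 fold change 1.65 ± 0.61, adjusted p = 0.0291), and its call was lost without E13.5 MM replicate 1, 2 or 5 or E16.5 MM replicate 2 (log2 fold changes 1.26 to 1.61). Acta1 was at 152, 45.9, 346, 239.8 and 110.5 in E13.5 MM (log2 fold change 3.90 ± 0.70, adjusted p = 9.63e-05). Myh1, the fast heavy chain, had a negative value, with 13.6 to 58.6 in E13.5 MM and 18.0 to 21.2 in E16.5 MM (adjusted p = 0.0931).

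In the Z-disc group the largest called differences were in Ttn (log2 fold change 3.42 ± 0.65, adjusted p = 0.000193), Xirp1 (log2 fold change 3.02 ± 0.70, adjusted p = 0.00123) and Actn2 (log2 fold change 2.58 ± 0.67, adjusted p = 0.00336). Xirp1 overlaps Cx3cr1 on the same strand. Desmin (Des) and Klhl41, a regulator of sarcomere proteins, were present at E13.5 already, at 310.1 to 562 and 251 to 596, and were called with smaller differences. Casq2 (log2 fold change 3.05 ± 0.67, adjusted p = 0.000798), Atp2a1 (log2 fold change 2.98 ± 0.63, adjusted p = 0.000547) and Cav3 (log2 fold change 2.29 ± 0.56, adjusted p = 0.00178) led the calcium group. Ampd1 (log2 fold change 3.40 ± 0.71, adjusted p = 0.000449) and Pygm (log2 fold change 2.48 ± 0.43, adjusted p = 5.54e-05) followed Ckm among the metabolic genes. Cox6a2 passed the test (adjusted p = 0.00538) but not the count threshold, with a mean of 49.9 in E16.5 MM. The receptor subunit Chrna1 was at 187, 128, 306, 183 and 179 in E13.5 MM and 202, 216, 237, 238 and 125 in E16.5 MM (log2 fold change 0.05, adjusted p = 0.88). Its level thus lay in the same range at both stages while most contractile genes differed several-fold.

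Among the 3 tissues of E13.5 few members were called, and these comparisons share their libraries. Between E13.5 MM and E13.5 VM, 0 of 43 were higher and 1, Mybpc1, was lower, where 3.79% of all genes were called higher and 2.66% lower. Between E13.5 SM and E13.5 VM, 0 were higher and 6 were lower, where 15.6% of all genes were called higher and 14.7% lower. They were Mybpc1, Acta1, Cacna1s, Myl4, Myoz2 and Tnnt1. This count rested on single libraries. Without E13.5 SM replicate 1 it was 20, and it fell to 2 without any 1 of SM replicates 2, 3, 4 and 5 or VM replicate 3, to 3 without VM replicate 5 and rose to 9 without VM replicate 4. Mybpc1 and Acta1 (log2 fold change -2.07 ± 0.68, adjusted p = 0.0125) were called in each of these fits. With the replicate number as a block, 10 were called. Between E13.5 SM and E13.5 MM only Mybpc1 was called, and it was lower, where 15.6% of all genes were called higher and 14.5% lower. The median log2 fold change of the members was −0.72 in E13.5 MM against VM, −0.97 in SM against VM and −0.17 in SM against MM, and that of all genes lay between −0.04 and −0.01. Without E13.5 SM replicate 1 the last comparison had 4 calls. Myh2 had 0 counts in all 5 SM libraries and 3.92 to 13.7 normalized counts in E13.5 MM, too low for a call, where a count of 0 allows up to 3 counts in a library.

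Mybpc1 was the only member called in each of the 3 comparisons of E13.5 tissues. In E13.5 VM it was at 4307, 5206, 4515, 5404 and 5189.6, with a coefficient of variation of 9.78% where the members' median was 42.6%. Eno3 varied as little in that tissue, at 9.68%. Per length it was the highest member in that tissue, at 1088 ± 106 normalized counts per kilobase (SD, n = 5). In VM replicate 4, where the median ratio of the members to the other 4 libraries was 0.320, Mybpc1 stood at 1.11. In E13.5 MM it was at 725, 836, 1129, 1209.8 and 1035 and in E13.5 SM at 177, 48.9, 37.6, 30.6 and 25.9. The levels of the 3 tissues did not overlap. The share of all genes that were lower in this way was 7.31% for MM against VM, 20.9% for SM against VM and 22.0% for SM against MM. Mybpc1 fell from E13.5 VM to E13.5 MM (log2 fold change -2.32 ± 0.49, adjusted p = 0.00192) and was lower again in E13.5 SM, against VM (log2 fold change -6.25 ± 0.61, adjusted p = 1.39e-08) and against MM (log2 fold change -3.93 ± 0.57, adjusted p = 4.07e-06). At E16.5 its level followed the other members from library to library. It was at 1741, 2138, 701, 1098 and 539 in E16.5 MM and at 10891, 13982, 7589, 8776 and 1441 in E16.5 FP, where replicate 5 stood at 0.147 of the median of the other 4. Between E13.5 MM and E16.5 MM it did not pass the test (log2 fold change 0.33, adjusted p = 0.584). The tendon genes Scx, Tnmd and Mkx summed to 11.9 to 29.7 CPM in E13.5 VM, 2.13 to 4.19 CPM in E13.5 MM and 1.15 to 3.01 CPM in E13.5 SM. Against VM all 3 were called lower in both other tissues, as Mybpc1 was, and 0 of 3 were called between SM and MM, where their sums overlapped. Their part was not tested.

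**Figure D4:**
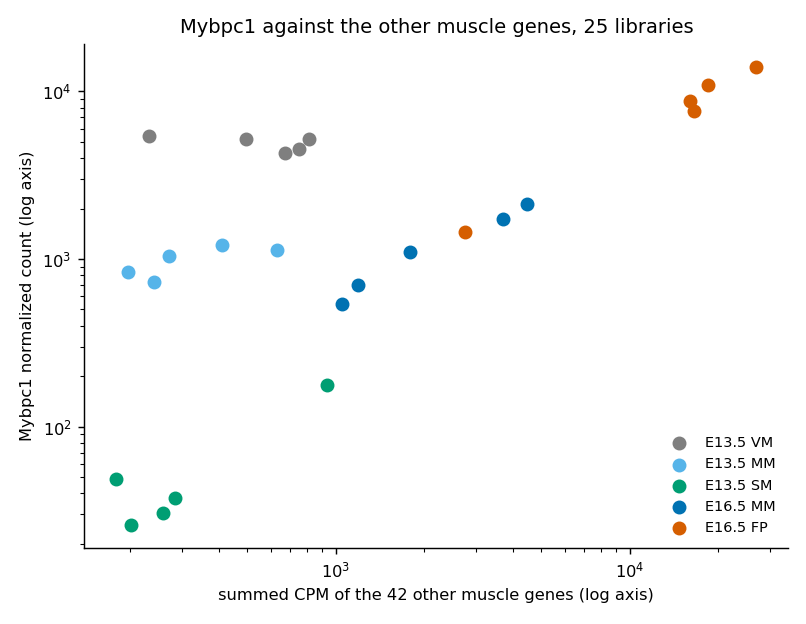
Normalized count of Mybpc1 against the summed CPM of the 42 other muscle genes in the 25 libraries (both axes logarithmic), coloured by tissue. The 5 E13.5 VM libraries lie at 4307 to 5404 over a range of sums from 231 to 812 CPM, and the E16.5 libraries lie along a rising line.

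Ratios of isoforms were taken within each library, so that a factor common to both genes cancels. Where 1 gene of a pair does not follow the muscle sum, the ratio still moves with it. In E16.5 MM, Myh1 was at 18.0 to 21.2 normalized counts while Myh3 was at 2654 to 9745. Myh1 over Myh3 was 0.00246 and 0.00191 there in replicates 1 and 2, which had the largest sums. In replicates 3 to 5 it was 0.00692, 0.00551 and 0.00816. How far the other ratios move with the sum was not tested. The 7 ratios were compared in 3 comparisons with exact two-sided permutation tests, 21 in all, adjusted by Benjamini and Hochberg's method. With 5 pools against 5 the smallest p such a test can give is 0.00794. The ratios are of counts with 0.5 added, without correction for length. Genes of a family share sequence, and how the quantification divided reads between them could bear on the ratios.

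Of the reads of the 5 heavy chain genes per length, Myh3 took 86.9% ± 0.739 (SD, n = 5) in E13.5 VM, 81.6% ± 0.981 in the mammary mesenchyme of that stage, 75.3% ± 5.83 in E13.5 SM, 68.9% ± 3.45 in E16.5 MM and 62.3% ± 1.75 in the fat pad. Myh8 took 5.60% ± 0.669, 11.3% ± 1.47, 16.2% ± 4.27, 28.8% ± 3.75 and 37.1% ± 1.92 in the same order. The length used was that of all annotated exons of a gene together, 11772 bases for Myh8 and 6057 for Myh3. The lead of Myh3 over Myh8 in the fat pad depends on this choice. By counts alone, Myh8 over Myh3 was 1.0 to 1.22 there. Myh7 took 1.72% ± 0.173 in E16.5 MM and 0.497% ± 0.280 in the fat pad, against 4.04% ± 1.11 to 6.81% ± 1.95 in the E13.5 tissues. Myh1 took at most 2.47% ± 0.678 and Myh2 at most 0.681% ± 0.405 on average, both in E13.5 MM. The embryonic and perinatal chains thus made up most of the reads of these 5 genes in every tissue. Because these are shares of a common total, a higher share of Myh8 largely entails a lower one of Myh3.

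The ratio of Myh8 to Myh3 was 0.137, 0.132, 0.106, 0.141 and 0.111 in E13.5 VM and 0.322, 0.294, 0.249, 0.233 and 0.246 in E13.5 MM. It was 0.890, 0.941, 0.820, 0.861 and 0.583 in E16.5 MM, next to 1.19, 1.0, 1.20, 1.22 and 1.19 in the fat pad. The ratio was higher in every E16.5 MM library than in every E13.5 MM library (mean log2 ± SD of -0.31 ± 0.27 against -1.91 ± 0.20, n = 5 each, exact permutation test, p = 0.00794, adjusted p = 0.0128), and higher in E16.5 FP than in E16.5 MM (0.21 ± 0.12 against -0.31 ± 0.27, exact permutation test, p = 0.00794, adjusted p = 0.0128). Fat pad replicate 5, whose summed level lay within the range of E16.5 MM, had a ratio of 1.19 like the other fat pad libraries. In E13.5 SM the ratio was 0.230, 0.434, 0.378, 0.493 and 0.601, with the lowest value in replicate 1, the SM library with the highest summed level of the members.

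Fast over slow troponin showed the same order of tissues at E16.5. Tnnt3 over Tnnt1 was 0.0548 to 0.120 in E13.5 MM, 2.72, 3.02, 1.19, 2.84 and 1.59 in E16.5 MM, next to 5.95, 6.17, 5.46, 5.98 and 4.60 in the fat pad. Tnni2 over Tnni1 was 0.170 to 0.415 in E13.5 MM, 1.18 to 2.18 in E16.5 MM and 2.64 to 3.83 in the fat pad. Tnnc2 over Tnnc1 was 0.360 to 0.495, 2.00 to 4.62 and 7.03 to 10.5 in these tissues. In the 3 E13.5 tissues the slow subunit had more counts in every library and at E16.5 the fast one had more in every library. The mean log2 ratio differed between E16.5 FP and E16.5 MM by 1.39 for Tnnt3/Tnnt1, 0.92 for Tnni2/Tnni1 and 1.55 for Tnnc2/Tnnc1. Between E16.5 MM and E13.5 MM the same differences were 4.81, 2.87 and 2.89. In all 6 cases the groups did not overlap (exact permutation tests, each p = 0.00794 and adjusted p = 0.0128).

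The ratios of the slow Myh7 to Myh3 and of the embryonic Myl4 to Myl1 went the other way. Myh7 over Myh3 was 0.0479, 0.0592, 0.0746, 0.0969 and 0.0764 in E13.5 MM, 0.0309, 0.0410, 0.0342, 0.0376 and 0.0347 in E16.5 MM, next to 0.0164, 0.0192, 0.00704, 0.00744 and 0.00637 in the fat pad. Within the fat pad, replicates 1 and 2 lay above the other 3. Myl4 over Myl1 was 1.35 to 3.06 in E13.5 MM, 0.462 to 0.768 in E16.5 MM and 0.268 to 0.352 in the fat pad. Both ratios fell at each of these steps without overlap, by mean log2 differences of -0.96 and -1.82 for Myh7/Myh3 and of -1.72 and -0.92 for Myl4/Myl1 (exact permutation tests, each p = 0.00794 and adjusted p = 0.0128). The ratio of the adult fast Myh1 to Myh3 was also lower at the later stage of the mammary mesenchyme (difference -2.88, exact permutation test, p = 0.00794, adjusted p = 0.0128). As given above, this ratio moved with the muscle sum in E16.5 MM. It did not pass between E16.5 FP and E16.5 MM (difference -1.48, exact permutation test, p = 0.0635, adjusted p = 0.0784), where fat pad replicate 5 was at 0.00656 and the other 4 at 0.000744 to 0.0013. Leaving out replicate 5 brought that ratio past the threshold.

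Between E13.5 SM and E13.5 MM, 2 of 7 ratios differed. Myl4 over Myl1 was 1.43, 1.13, 0.961, 1.03 and 0.585 in E13.5 SM and 1.35, 3.06, 1.52, 1.94 and 1.99 in E13.5 MM (mean log2 -0.02 ± 0.47 against 0.92 ± 0.45, exact permutation test, p = 0.0159, adjusted p = 0.0238). Myh7 over Myh3 was 0.0894, 0.187, 0.0841, 0.148 and 0.149 in E13.5 SM (mean log2 -2.99 ± 0.51 against -3.86 ± 0.39, exact permutation test, p = 0.0238, adjusted p = 0.0333). In both ratios the tissues overlapped, and the second call was lost without E13.5 MM replicate 1, 2, 3 or 5 or E13.5 SM replicate 2 (differences 0.72 to 0.90). For Myh8 over Myh3 the difference was 0.61 (exact permutation test, p = 0.0556, adjusted p = 0.0729).

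**Figure D5:**
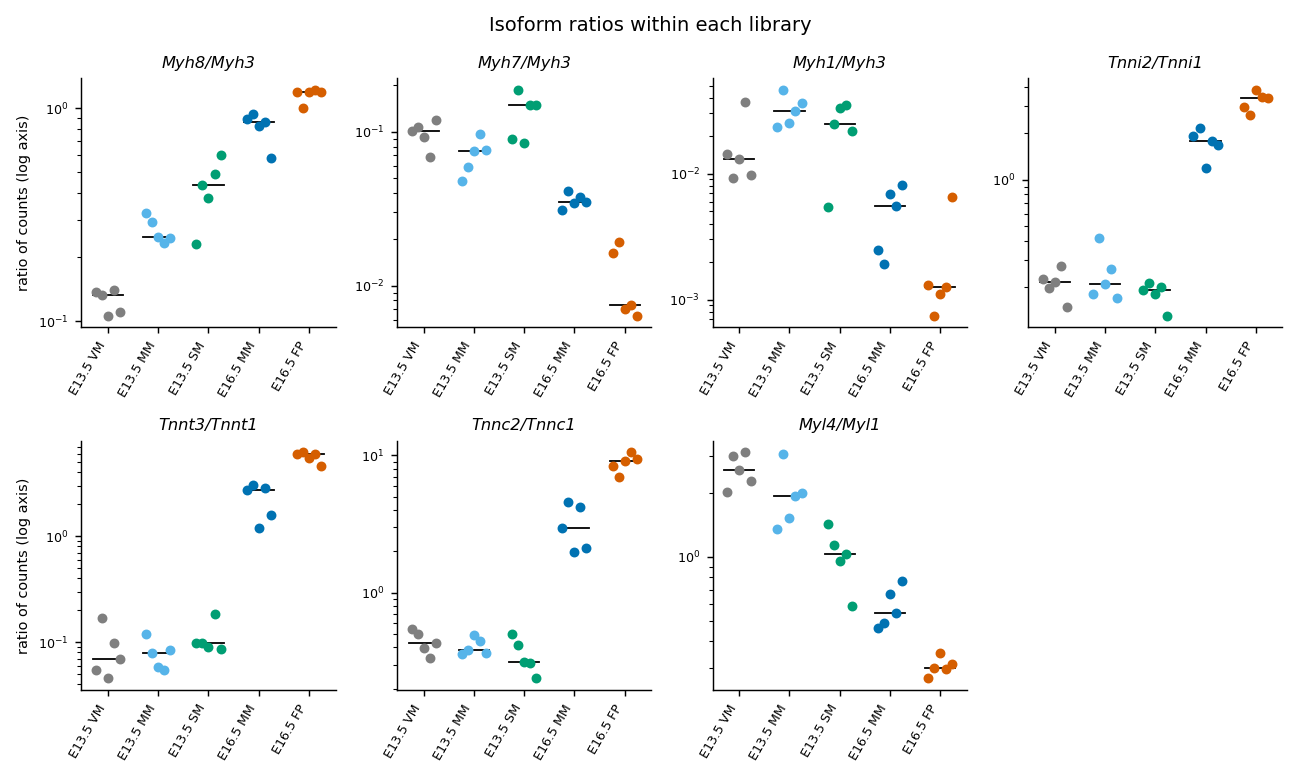
Ratios of counts of 7 pairs of muscle isoforms (log axes) in each library by tissue, with bars at the medians. For Tnni2/Tnni1, Tnnt3/Tnnt1 and Tnnc2/Tnnc1 the E16.5 libraries lie above 1 and the E13.5 libraries below 1, and E16.5 FP lies above E16.5 MM.

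Of the other genes of the muscle programme, 10 myogenic regulators were followed. Between E16.5 FP and E16.5 MM, 8 were higher and 1 was lower. Myf6, a regulator of fibre differentiation, was at 432, 414, 231, 310.0 and 41.2 in the fat pad and 27.5, 106, 10.8, 25.4 and 18.1 in E16.5 MM (log2 fold change 2.93, adjusted p = 0.000164). Mymk, the fusogen of myoblasts, had a log2 fold change of 2.31 (adjusted p = 0.000504). The gene that was lower was Pax3, a progenitor factor, at 13.3 to 32.2 against 46.8 to 74.0. Between E16.5 MM and E13.5 MM, where 29 members were higher and 0 lower, 4 regulators were lower, Pax3, Pax7, Myf5 and Myod1, and 1 was higher, Mef2c. Myod1, a master regulator of myoblasts, was at 140.2, 83.3, 289.9, 189.6 and 123 in E13.5 MM and 59.7, 58.8, 73.4, 59.0 and 26.2 in E16.5 MM (log2 fold change -1.58, adjusted p = 0.00816). Pax7 (log2 fold change -1.41, adjusted p = 0.0361) and Myf5 (-1.32, adjusted p = 0.026) were lower as well, while Myog, the regulator of terminal differentiation, was at 339.8 to 1147 in E13.5 MM and 415 to 644 in E16.5 MM and was not called. Myf6 was at 0 to 3.83 normalized counts in the E13.5 libraries.

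Of 20 other sarcomere genes tested, 17 were higher in E16.5 FP than in E16.5 MM and 0 lower, and 12 were higher and 1 lower in E16.5 MM against E13.5 MM. The one that was lower was Myh4, another adult fast heavy chain (log2 fold change -2.38, adjusted p = 0.00126), at 37.3 to 76.0 and 4.03 to 25.2. Like Myh1 and Myh2 it was scarce, and its highest value in any library was 76.0 normalized counts. Of 19 other genes of excitation-contraction coupling and the junction tested, 18 were higher in the fat pad and 6 in E16.5 MM against E13.5 MM, with 0 lower in either. Sln, the sarcolipin that regulates the calcium pump, had the largest of the latter (log2 fold change 3.74, adjusted p = 0.000287). Of 8 other muscle metabolic genes tested, 6 were higher in the fat pad and 1, Pgam2, in E16.5 MM against E13.5 MM (log2 fold change 2.88, adjusted p = 0.000556). In the E13.5 comparisons at most 3 of the genes of any of these lists were called in 1 direction.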

How the data were processed

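Total RNA of 25 pools of mesenchyme was sequenced as Ovation SoLo libraries on a NextSeq 500. Per the study's methods and the submitters' processing notes, the authors used FastQC 0.11.8 and MultiQC 1.9 for quality control and Trimmomatic 0.39 for trimming, removed ribosomal reads with SortMeRNA, quantified transcripts with Salmon 0.99.0 against mm10, and deposited estimated counts per gene, which are whole numbers in the file. The annotation release and the use of strand are not given in the sources used here. Genes that share sequence can trade reads under such quantification. Symbols, positions and lengths came from GENCODE M21 (GRCm38), and 375 of 35880 identifiers had no symbol there.

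The counts were normalized by TMM and tested with edgeR 4.0.16 in R 4.3.3 (filterByExpr, glmQLFit with robust estimation, glmQLFTest) in a single fit over all 25 libraries and 5 tissues, with contrasts between tissues and Benjamini-Hochberg adjustment over the 17657 genes that passed the filter, which all 43 members did. The ± after a log2 fold change is a standard error, computed as its size divided by the square root of the F statistic. Isoform ratios were compared by exact permutation tests (Python 3.11.15, scipy 1.17.1) and a group's single value was tested for distance from the others by Dixon's ratio. The scripts were tested on simulated counts. No libraries were identical. Depth of 20678150 to 34448304 counts leaves few counts for genes such as Myh2 and Myh4.

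Full statistics were given for called members, up to 3 per role with the largest log2 fold changes plus the members of the isoform ratios, and for up to 3 called genes of each further list, of which some are not reported here. The members and lists were chosen with earlier results of these data known. Alternatives were DESeq2 1.42.0, no count threshold, the size factors of DESeq2, all genes without an expression filter, the 2 tissues alone, the replicate number as a block, a pseudocount of 5 in place of 0.5, and leaving out each replicate. The count of non-overlapping members without E16.5 FP replicate 5 was chosen after seeing the data.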

Additional observations from a re-analysis of the deposited data

Results flagged for a closer look

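Of 166 groups of 5 libraries tested with Dixon's ratio, 23 held a library farther from the others than the 95% critical value of 0.71. Among independent groups chance gives about 5%. These groups share libraries and the members moved together, so that the 23 cannot be set against this rate. Most of these values came from E13.5 SM replicate 1. Its summed level of the 43 genes, 943 CPM, stood above the 181 to 285 CPM of the other 4 SM libraries, and so did 18 single members. Among the thick filament genes its normalized counts were 3206 for Myh3, 286 for Myh7, 738 for Myh8, 735 for Mylpf, 304 for Myl1, 435 for Myl4, 177 for Mybpc1 and 185 for Mybph. Among the thin filament genes they were 295 for Acta1, 411 for Tnni1, 295 for Tnnc1 and 2681 for Neb. In the Z-disc group they were 406 for Actn2, 10316 for Ttn and 203 for Smyd1. For the calcium genes they were 309 for Casq2 and 216 for Atp2a1, and for the metabolic gene Pygm 134.

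In E16.5 MM, replicate 2 stood above the other 4 libraries for Mylpf (4429 normalized counts), Myl4 (1166) and Eno3 (1401). In E13.5 MM, replicate 3 stood above the others for Actn3 (103). E16.5 FP replicate 5, the fat pad library with the lowest summed level of the members, was not among these values.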

How the results depend on the processing

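The count of members called between E16.5 FP and E16.5 MM (39) stayed between 38 and 40 under every alternative, that between E16.5 MM and E13.5 MM (29) between 25 and 32, and that between E13.5 MM and E13.5 VM (1) at 1. The comparisons with E13.5 SM depended on the processing. Between E13.5 SM and E13.5 VM (6 called) there were 11 without the count threshold, 2 without the expression filter and 10 with the replicate block, and leaving out 1 replicate gave 2 to 20. Between E13.5 SM and E13.5 MM (1 called) there were 4 without the count threshold, 2 with the replicate block, 4 in a fit of these tissues alone (2 higher and 2 lower) and 3 with DESeq2 (1 higher and 2 lower), and leaving out 1 replicate gave 1 to 4. The cause was not tested. The isoform ratios called in that comparison (2) numbered 1 to 3 when 1 replicate was left out. Of the log2 fold changes of named members under an alternative, 712 stayed on their side of the threshold with the same direction and 38 lost their call, and of the ratio differences 160 and 5 did so. None reversed. Members higher in every fat pad library than in E16.5 MM numbered 3, and 40 without E16.5 FP replicate 5.

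The replicate numbers showed no clear pairing of the libraries, though with the litters unknown this check cannot exclude one. Libraries of the same number had correlations of their deviations from the tissue means between −0.163 and 0.289, with at most 2 of 5 pairs over 0.1 in any comparison, and at most 2 of 5 correlated best with their own number. The block left 39 and 29 members called in both E16.5 comparisons. Depth limits Ckm and Myh2 at E13.5, whose normalized counts were at most 6.83 and 13.7.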
